A study of Homo sapiens with 4 samples.

Results

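The nuclear genes for the subunits of respiratory complexes I to IV, with cytochrome c, were examined in a colon cancer epithelial line that had or had not been given TGF-β1, a secreted factor known to limit the growth of epithelia. Members were the probe sets (groups of short array probes that read a transcript together) whose single gene symbol in the platform annotation begins with NDUFA, NDUFB, NDUFC, NDUFS, NDUFV, UQCR, COX4I, COX5, COX6, COX7 or COX8, or is that of an SDH subunit, CYC1 or CYCS. NDUFAF assembly factors, antisense transcripts and pseudogenes were left out, and each gene was read by its brightest probe set. This gave 61 of the 19775 genes measured, 33 of complex I, 3 of complex II, 7 of complex III, 17 of complex IV and CYCS. They were read by 117 probe sets. NDUFC2, NDUFS5, NDUFS8 and UQCRH share their probe sets with other symbols and were therefore no members, and SDHB and UQCRFS1 were not analysed here.

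The cells, called LSTGFBR2, carry the type II TGF-β receptor TGFBR2 under a doxycycline-inducible promoter (the T-Rex system). The 4 arrays were 2 of cells given 5 ng/ml human recombinant TGF-β1 for 16 hours, begun 16 hours after seeding, and 2 of untreated cells. The protocol adds doxycycline from seeding, at 1 µg/ml in the treatment text and 1 µM in the growth text, but no label ties it to single arrays. Neither the parent line nor whether the inducible line is a single clone is given in the sources used here. By its brighter probe set TGFBR2 read 14.70 and 14.92 (log2) in TGF-β1 arrays, against 9.44 and 9.55 in untreated arrays, whereas its other probe set read 10.58 and 10.76 against 10.47 and 10.81. TGFBR2 signal thus stood apart between the groups by 1 probe set and not by the other. By the brighter probe set TGFBR2 was 39.9-fold higher in TGF-β1 arrays (log2 change 5.32, limma adjusted p = 0.000114), the largest change of all genes. Whether doxycycline differed between the groups, and whether this signal came from the induced receptor, was not tested. A difference in doxycycline or in the receptor cannot be told apart from TGF-β1 in the comparisons below. All 11 colon epithelial markers checked read above the median gene on at least 1 array, as did 2 of 7 fibroblast, 0 of 4 endothelial and 0 of 4 leukocyte markers. Summed on a linear scale, the fibroblast markers came to a log2 of 10.23 and 10.05 in TGF-β1 arrays and of 10.62 and 10.24 in untreated arrays, and their part in the results was not tested.

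The respiratory chain lies in the inner mitochondrial membrane. Complex I takes electrons from NADH and complex II from succinate, both pass them through coenzyme Q to complex III, cytochrome c carries them on to complex IV, and complex IV reduces oxygen. Complexes I, III and IV pump protons, and ATP synthase (complex V) uses the gradient. Most subunits are nuclear genes, while a few catalytic ones are encoded by mitochondrial DNA, and colon cancer cells use the chain beside glycolysis. Nuclear respiratory factor 1 (NRF1) and GABP are transcription factors known to bind promoters of many subunit genes, and the PGC-1 family are their coactivators.

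The subunit genes were nearly level between the groups. None of the 61 members passed limma's test at an adjusted p under 0.05, against a background of 3.34% of all genes (660 of 19775), made up of 1.87% higher and 1.47% lower. Among the 4886 genes with a mean log2 value of 10 or more, the range in which most members lie, 5.38% passed. The lowest adjusted p of a member was 0.353. At an unadjusted p under 0.05 the count was also 0 of 61, against 16.7% of all genes and 25.1% of those 4886. The log2 fold changes, TGF-β1 minus untreated, ran from -0.24 to 0.20, with a median of -0.03 beside 0.00 over all genes. The median absolute log2 change was 0.04 in the members, 0.12 in all genes and 0.15 in genes with a mean of 10 or more. By complex, the median was -0.03 in complex I, -0.04 in complex II, -0.02 in complex III and -0.03 in complex IV. The 95% intervals of the changes lay within 1.3-fold either way for 55 of the 61 genes and within 1.5-fold for 60, all but COX8C. A missed threshold does not show that levels were equal, and these intervals are what 2 arrays a group allow.

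**Figure D1:**
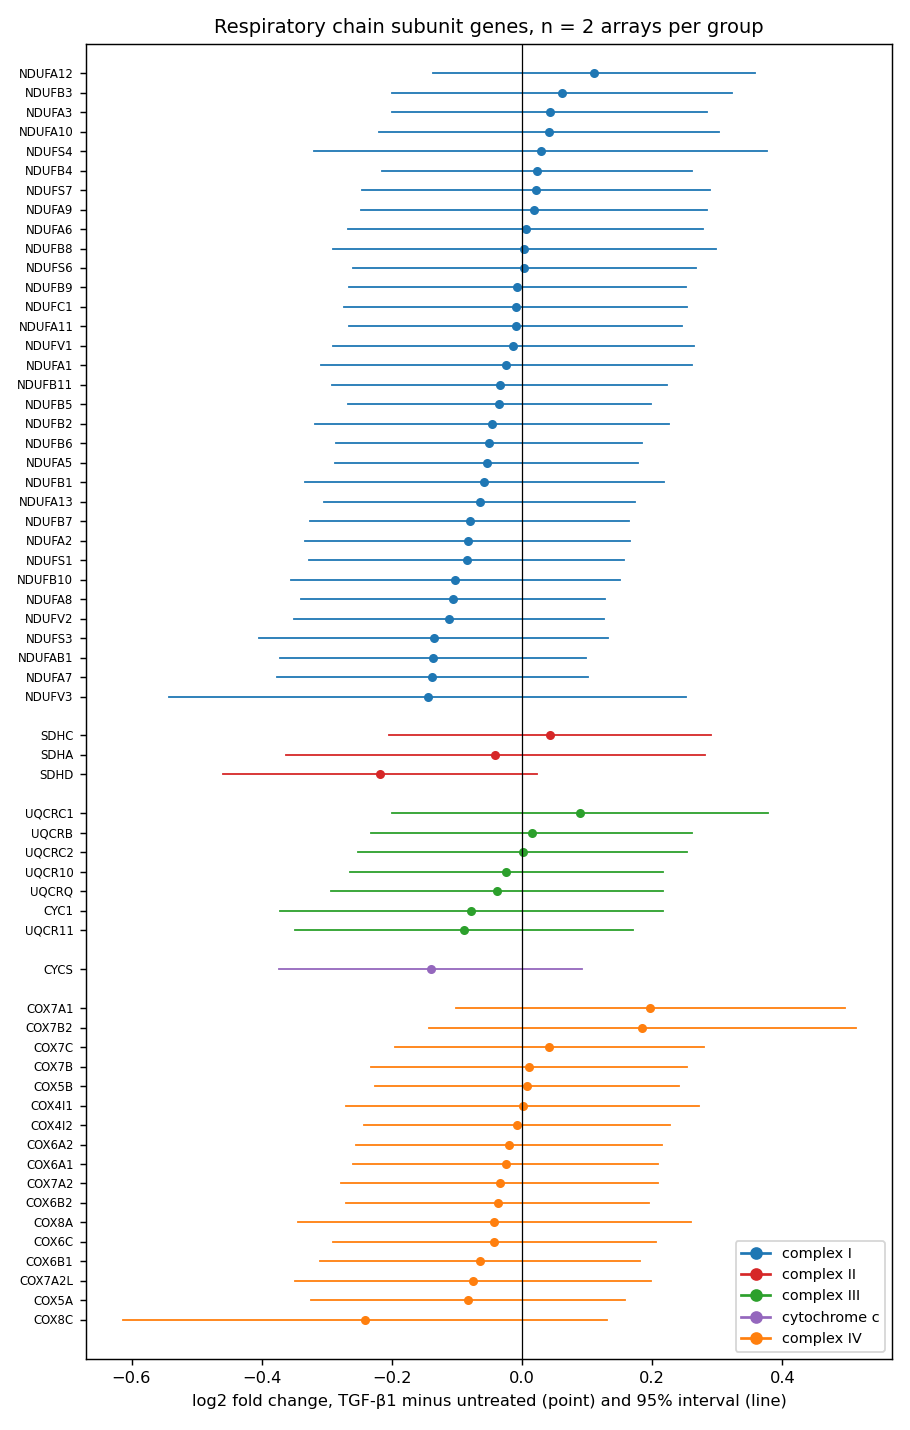
Log2 fold change (point) and 95% interval (line) of each of the 61 subunit genes, TGF-β1 minus untreated, grouped by complex, with n = 2 arrays per group. Every interval includes 0, and the points lie between -0.24 and 0.20.

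Levels do not compare between genes on this array, since probe sets differ in brightness, but their place against the array as a whole can be given. On every array 55 members read above the median gene (7.64 to 7.67), with values from 10.48 to 14.16. The other 6, all complex IV isoforms, read below it. TGFBR2 reached 14.92, above every member value, which does not show whether a given member probe set was near its own limit. Whether bright probe sets are compressed was not tested.

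**Figure D2:**
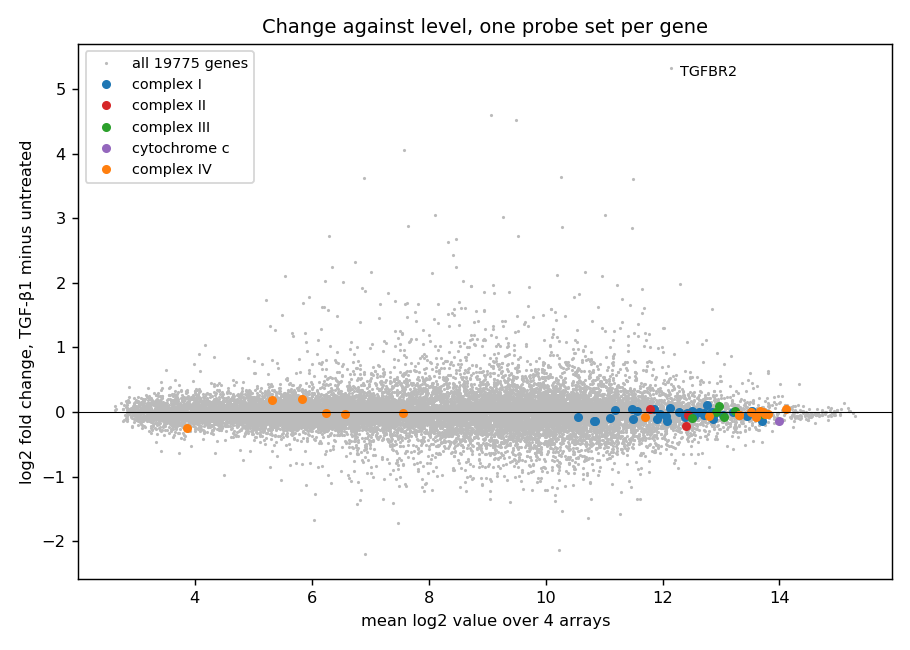
Log2 fold change (TGF-β1 minus untreated) against the mean log2 value over the 4 arrays, for all 19775 genes (grey) and for the subunit genes coloured by complex. The subunit genes lie along 0, while TGFBR2 is at 5.32.

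To show the promoters, 4 members are given by the 250 bases before their RefSeq start site (GRCh38.p14), because they carry the words of NRF1 or GABP and differ in which. SDHD lies at chr11:112086623-112086872 (plus strand), UQCR11 at chr19:1605463-1605712 (minus strand), NDUFB4 at chr3:120596086-120596335 (plus strand) and COX5B at chr2:97645812-97646061 (plus strand). Capitals mark the NRF1 word, a near-palindrome with any base at 1 inner place, and the GABP word CCGGAAG, each on either strand.
SDHD: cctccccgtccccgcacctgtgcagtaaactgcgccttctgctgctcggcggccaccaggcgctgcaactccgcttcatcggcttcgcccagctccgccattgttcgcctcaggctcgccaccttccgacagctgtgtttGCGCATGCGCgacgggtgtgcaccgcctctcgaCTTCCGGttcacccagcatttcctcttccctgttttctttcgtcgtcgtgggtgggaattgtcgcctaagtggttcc
UQCR11: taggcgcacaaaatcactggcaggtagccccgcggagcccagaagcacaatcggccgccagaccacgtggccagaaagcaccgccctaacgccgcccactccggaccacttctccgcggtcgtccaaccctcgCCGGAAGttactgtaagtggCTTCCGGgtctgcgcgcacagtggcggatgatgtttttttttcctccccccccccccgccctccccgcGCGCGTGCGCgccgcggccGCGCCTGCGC
NDUFB4: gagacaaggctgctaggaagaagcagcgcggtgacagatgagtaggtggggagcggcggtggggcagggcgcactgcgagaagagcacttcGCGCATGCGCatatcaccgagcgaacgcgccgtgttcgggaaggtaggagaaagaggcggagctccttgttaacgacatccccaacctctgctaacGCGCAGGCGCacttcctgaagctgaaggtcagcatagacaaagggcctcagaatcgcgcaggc
COX5B: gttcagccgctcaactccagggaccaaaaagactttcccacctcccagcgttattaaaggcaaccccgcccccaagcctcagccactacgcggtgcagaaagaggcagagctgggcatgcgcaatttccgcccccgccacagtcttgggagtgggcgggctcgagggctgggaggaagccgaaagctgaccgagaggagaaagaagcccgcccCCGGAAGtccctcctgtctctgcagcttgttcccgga
SDHD and UQCR11 hold both words, NDUFB4 holds the NRF1 word at 2 places and COX5B holds the GABP word alone. Promoters were found for 53 of the 61 members. The NRF1 word was in 10 of the 53 (18.9%), against 6.20% of 27305 genes with a promoter, and the GABP word was in 12 (22.6%), against 10.2%. Unlike the members, the 27305 were not limited to the 19775 genes measured here, so the shares come from unlike sets of genes. The Sp1 word GGGCGG was in 58.5% of members and 46.2% of genes, and the YY1 word AANATGGCG in 1 member and 1.67% of genes. The SMAD box CAGAC, which SMAD proteins recognise, was in 43.4% of members and 42.8% of genes. Both strands were searched, N stands for any base, words were counted also where they overlap another word, and a gene with several promoters counted once. Members with the NRF1 word had log2 fold changes from -0.24 to 0.11 (median 0.00), and those with the GABP word from -0.22 to 0.01 (median -0.06). These are matches of letters and not shown binding sites.

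Complex I is the entry point for NADH, and 33 of its genes were measured. Of these 11 had a positive and 22 a negative change, from -0.14 to 0.11. Its catalytic core is represented by 5 nuclear genes. NDUFS3, a core subunit near the coenzyme Q site, read 11.92 and 12.11 in TGF-β1 arrays against 12.16 and 12.15 in untreated arrays, a log2 change of -0.14 (95% interval -0.40 to 0.13). NDUFS1, the large iron-sulfur subunit, read 11.09 and 11.03 against 11.11 and 11.19 (-0.09, interval -0.33 to 0.16). The remaining core genes NDUFV1 and NDUFV2, which form the NADH-oxidising end, and NDUFS7 had changes of -0.01, -0.11 and 0.02. In 3 of the 5 core genes, NDUFS3, NDUFS1 and NDUFV2, both TGF-β1 values lay below both untreated values. The same held in 31.8% of genes with a mean of 10 or more. The interval of each of these 3 changes included 0.

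The 28 accessory subunits of complex I, which surround the core and aid its assembly and stability, ranged from -0.14 to 0.11 with a median of -0.03. NDUFA12 had the highest change, with 12.82 and 12.80 in TGF-β1 arrays against 12.64 and 12.76 in untreated arrays (0.11, interval -0.14 to 0.36). NDUFB3 (0.06), NDUFA3 (0.04) and NDUFA10 (0.04) came next, and only for NDUFA12 among the complex I genes did both TGF-β1 values lie above both untreated ones. At the other end NDUFV3 read 10.88 and 10.67 against 11.13 and 10.71, a change of -0.14 (interval -0.54 to 0.25), with the untreated arrays apart by more than the groups. NDUFA7 read 10.78 and 10.75 against 10.94 and 10.87 (-0.14, interval -0.38 to 0.10). NDUFAB1, the mitochondrial acyl carrier protein that is also a complex I subunit, read 13.61 and 13.65 against 13.76 and 13.77 (-0.14, interval -0.37 to 0.10). For NDUFA7 and NDUFAB1 the TGF-β1 values were the lower pair without overlap. This was so in 9 of the 28 accessory genes (32.1%), beside 31.8% of genes with a mean of 10 or more. NDUFB8 and NDUFS6 were nearest to 0, at 0.00 each. NDUFB8 read 12.16 and 12.42 in TGF-β1 arrays against 12.27 and 12.30 in untreated arrays.

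Complex II, succinate dehydrogenase, also belongs to the citric acid cycle. SDHD, a membrane anchor whose promoter is shown above, had the lowest unadjusted p of the 61 members. It read 12.25 and 12.34 in TGF-β1 arrays against 12.53 and 12.50 in untreated arrays, a log2 change of -0.22 (95% interval -0.46 to 0.02, unadjusted p = 0.0688, limma adjusted p = 0.353). The groups did not overlap, but SDHD did not pass. SDHC, the other membrane anchor, read 11.77 and 11.85 against 11.81 and 11.72 (0.04), and SDHA, the flavoprotein that oxidises succinate, read 12.33 and 12.49 against 12.31 and 12.59 (-0.04). In SDHC and SDHA the groups overlapped.

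Complex III passes electrons from coenzyme Q to cytochrome c. UQCRC1, a core protein, read 12.92 and 13.09 in TGF-β1 arrays against 12.83 and 13.00 in untreated arrays (0.09, interval -0.20 to 0.38), and UQCRC2, its partner, 12.86 and 12.98 against 12.96 and 12.89 (0.00). CYC1, the haem-bearing cytochrome c1, read 13.05 and 12.99 against 12.97 and 13.23 (-0.08, interval -0.37 to 0.22). The small subunits UQCRB, UQCR10, UQCRQ and UQCR11 had changes of 0.01, -0.02, -0.04 and -0.09. In all 7 complex III genes the groups overlapped.

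Complex IV, cytochrome c oxidase, has nuclear subunits around a core encoded by mitochondrial DNA. Apart from the 6 dim isoforms, its 11 genes ranged from -0.08 to 0.04. COX7C, highest among these, read 14.11 and 14.16 in TGF-β1 arrays against 14.11 and 14.07 in untreated arrays (0.04). COX5A read 13.61 and 13.52 against 13.64 and 13.66 (-0.08, interval -0.32 to 0.16), the lowest, and was the only one of the 11 without overlap. COX4I1, through which ATP is known to inhibit the enzyme, read 13.63 and 13.82 against 13.70 and 13.74 (0.00), and COX5B read 13.52 and 13.50 against 13.51 and 13.49 (0.01). COX7A2L, a factor that joins complexes III and IV into supercomplexes, had a change of -0.08, COX6B1 of -0.06 and COX8A of -0.04, all with overlap. COXFA4, formerly NDUFA4 and now counted to complex IV, is listed under its newer symbol and so was no member. It read 13.39 and 13.34 in TGF-β1 arrays against 13.42 and 13.34 in untreated arrays (-0.01), and its relative COXFA4L2 read 7.73 and 7.31 against 7.69 and 7.37 (-0.01).

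Several complex IV subunits come as a general form and a form restricted to heart and muscle, lung or testis. The 6 restricted forms (COX4I2, COX6A2, COX6B2, COX7A1, COX7B2 and COX8C) read between 3.65 and 7.59, below the median gene on every array, and RMA gives no call on whether such values exceed background. They held the extremes of the whole set. COX7A1, the heart and muscle form, read 6.06 and 5.79 in TGF-β1 arrays against 5.72 and 5.74 in untreated arrays (0.20, interval -0.10 to 0.50), and COX7B2 read 5.54 and 5.29 against 5.12 and 5.34 (0.18). COX8C read 3.65 and 3.85 against 3.81 and 4.17 (-0.24, interval -0.61 to 0.13). Their general forms COX7A2, COX7B and COX8A had changes of -0.03, 0.01 and -0.04. COX4I2, COX6A2 and COX6B2 differed by -0.01, -0.02 and -0.04, and the general forms COX4I1 and COX6A1 by 0.00 and -0.03.

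As a set, the subunit genes stood lowest on 1 array. Of the 61 members, 45 read lower in TGF-β1 replicate 1 than in TGF-β1 replicate 2, against 10125 of all 19775 genes, and 30 read lower in untreated replicate 1 than in untreated replicate 2. The median deviation from the gene's own mean was -0.05 on TGF-β1 replicate 1 and 0.02, 0.02 and 0.01 on TGF-β1 replicate 2, untreated replicate 1 and untreated replicate 2. Without TGF-β1 replicate 1 the median change of the members was 0.02, and without TGF-β1 replicate 2 it was -0.06. In 16 of 61 members (26.2%) both TGF-β1 values lay below both untreated values, beside 23.0% of all genes and 31.8% of genes with a mean of 10 or more. Complex I, with 33 of the 61 members, held 12 of the 16, which is 36.4% of its own genes. In 2 members, NDUFA12 and COX7A1, both TGF-β1 values lay above, beside 21.4% of all genes and 25.4% of genes with a mean of 10 or more.

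**Figure D3:**
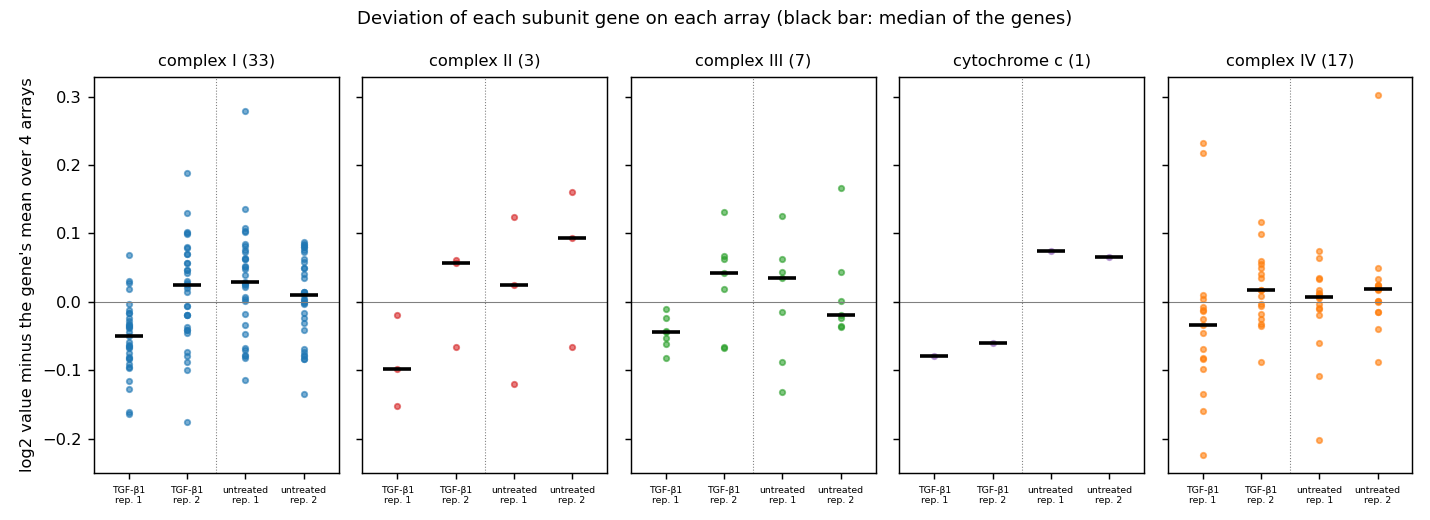
Deviation of each subunit gene from its own mean over the 4 arrays (log2 units), by array and complex, with TGF-β1 arrays left and untreated arrays right of the dotted line. The black bar is the median of the genes of that complex, and in complexes I to IV it lies lowest on TGF-β1 replicate 1.

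Cytochrome c, the soluble carrier between complexes III and IV that also triggers apoptosis when released, differed by probe set. By its brightest probe set (208905_at) CYCS read 13.91 and 13.93 in TGF-β1 arrays against 14.07 and 14.06 in untreated arrays, a log2 change of -0.14 (95% interval -0.37 to 0.09, limma adjusted p = 0.573). The second, 229415_at, read 8.64 and 8.87 against 9.49 and 9.63 (-0.80, interval -1.12 to -0.49), and did not pass over all probe sets (limma adjusted p = 0.0506). The third, 244546_at, read 7.14 and 7.05 against 7.91 and 8.23 and fell by 0.98 (interval -1.32 to -0.63, limma adjusted p = 0.0406). All 3 had both TGF-β1 values below both untreated values, and the dimmer 2 were 1.75- and 1.97-fold lower where the brightest was 1.10-fold lower. Averaged over its probe sets, CYCS fell by 0.64 (limma adjusted p = 0.0281). With any 1 array left out 244546_at no longer passed (0.142 to 0.187). Which transcript forms the probe sets read, and whether the human CYCS pseudogenes add to any of them, was not tested.

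The other 56 probe sets of the 32 members that had several were used as a check. At an adjusted p under 0.05, 1 of them passed, the CYCS one, against 1.44% of all 41097 single-symbol probe sets (0.499% lower). Without adjustment 7 were lower and 0 higher, against 14.5% of all probe sets in either direction and 7.45% lower. These 7 were 2 for CYCS and 1 each for UQCR11, COX5A, NDUFA6, NDUFA10 and NDUFA5, the last 5 named after their values were seen. The UQCR11 probe set 223613_at read 8.79 and 8.84 in TGF-β1 arrays against 9.29 and 9.49 in untreated arrays (-0.58), while its brightest differed by -0.09. The COX5A probe set 229426_at read 9.11 and 8.95 against 9.63 and 9.41 (-0.49), while its brightest differed by -0.08. Discordant, too, was NDUFS1, whose probe set 236356_at read 9.03 and 7.86 against 9.13 and 9.19, so that its change of -0.71 rested on TGF-β1 replicate 2. The 15 other probe sets with a mean of 10 or more had a median change of 0.00, and the 41 dimmer ones of -0.14, beside -0.01 over all probe sets.

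Genes that act on the chain without being subunits were examined as 4 lists. ATP synthase resembled the subunits in its counts, with 0 of 18 genes called, against 3.34% of all genes, and a median of -0.03. Its highest gene was ATP5PD, with 13.67 and 13.63 in TGF-β1 arrays against 13.65 and 13.53 in untreated arrays (0.06). Its lowest was ATP5MF, read here only by a dim probe set, with 6.78 and 6.81 against 6.95 and 7.14 (-0.25, interval -0.52 to 0.02). Of 21 measured genes of the citric acid cycle and coenzyme Q synthesis, 2 fell and 0 rose, with a median of 0.02. That compares with 1.47% of all genes that fell, and 2.70% of genes with a mean of 10 or more. Both lowered genes make coenzyme Q. COQ8A, an atypical kinase of that pathway, read 10.42 and 10.29 against 11.36 and 11.15 (1.86-fold lower, limma adjusted p = 0.0203), and PDSS1, which makes its side chain, read 10.14 and 9.95 against 10.79 and 10.71 (1.63-fold lower, adjusted p = 0.0332). The other PDSS1 probe set differed by -0.05, and by the mean of both PDSS1 did not pass (adjusted p = 0.0862).

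Of 49 assembly factors of complexes I to IV, 3 fell and 0 rose, against 1.47% of all genes that fell. Of genes with a mean of 10 or more, 2.70% fell. The median log2 change of the assembly factors was -0.22, and 43 of the 49 changes were negative, against 10116 of all 19775. Without adjustment 13 were lower and 1 higher, against 8.54% and 8.18% of all genes. The higher one, COX17, was read by a dim probe set with a mean log2 value of 6.14. Of the 4886 genes with a mean of 10 or more, 689 were lower and 535 higher without adjustment. COA7, a complex IV assembly factor, read 10.06 and 10.03 in TGF-β1 arrays against 10.89 and 10.87 in untreated arrays (1.78-fold lower, limma adjusted p = 0.0139). NDUFAF4, a complex I assembly factor, read 11.21 and 11.10 against 11.91 and 11.95 (1.71-fold lower, adjusted p = 0.0198). LYRM7, which handles the Rieske iron-sulfur protein of complex III, read 10.55 and 10.33 against 11.23 and 11.08 (1.64-fold lower, adjusted p = 0.0396). The other probe sets of these 3 genes also had negative changes, but by the mean of its probe sets LYRM7 did not pass (-0.81, adjusted p = 0.0885), nor did any of its probe sets when all probe sets were tested.

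Of 19 regulators of mitochondrial biogenesis, 4 fell and 0 rose, against 1.47% of all genes that fell and 1.87% that rose. Of genes with a mean of 10 or more, 2.70% fell. The median of the regulators was -0.14, and without adjustment 9 were lower and 0 higher, against 8.54% and 8.18% of all genes. Of the 4886 genes with a mean of 10 or more, 689 were lower and 535 higher without adjustment. PPARGC1B, the coactivator PGC-1β, read 7.36 and 7.54 in TGF-β1 arrays against 8.73 and 8.58 in untreated arrays (2.31-fold lower, limma adjusted p = 0.00811). TWNK, the mitochondrial DNA helicase Twinkle, read 9.58 and 9.47 against 10.80 and 10.57 (2.23-fold lower, adjusted p = 0.0106). These were the 2 largest changes in the 4 lists. PPRC1, the PGC-1-related coactivator, read 9.14 and 9.14 against 9.87 and 9.93 (1.70-fold lower, adjusted p = 0.0185). TFAM, which packages and helps transcribe mitochondrial DNA, read 10.78 and 10.82 against 11.33 and 11.36 (1.46-fold lower, adjusted p = 0.0435), and its 4 probe sets had changes from -0.69 to -0.46, none of which passed when all probe sets were tested (adjusted p from 0.0517 to 0.107). Among genes named after their values were seen, PPARGC1A (PGC-1α) had a change of -0.63 and did not pass (adjusted p = 0.0504), and NRF1 and GABPA, the factors whose words the promoters above carry, had changes of -0.01 and 0.06. For PPARGC1B the other 3 probe sets had changes of -0.43 to -0.02, and by the mean of its probe sets it did not pass (-0.45, adjusted p = 0.0572). With any 1 array left out, 0 assembly factors and 0 coenzyme Q genes passed, and of the regulators only PPARGC1B (without TGF-β1 replicate 2) and TWNK (without untreated replicate 2). Whether the lists differ from the subunits was not tested, and in bulk RNA a change per cell cannot be told apart from a change in the mix of cells.

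**Figure D4:**
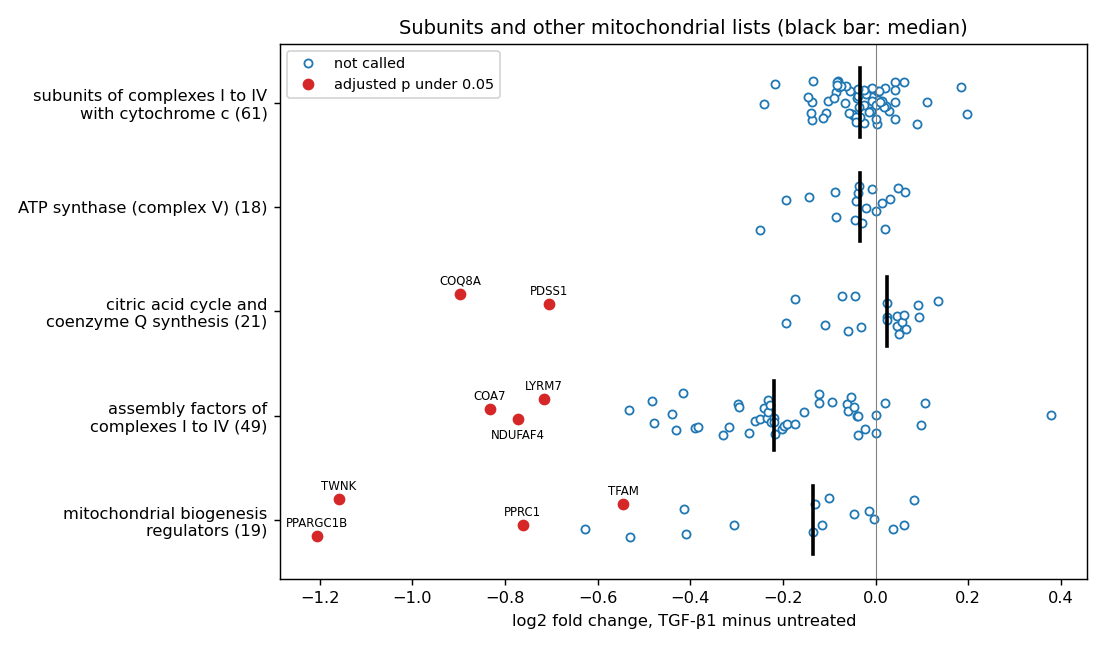
Log2 fold change (TGF-β1 minus untreated) of each gene of the subunit set and of the 4 other lists, with genes called at an adjusted p under 0.05 filled in red and named, and the list median as a black bar. No subunit and no ATP synthase gene is filled, while 2, 3 and 4 genes of the other lists are, all below 0.

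**Figure D5:**
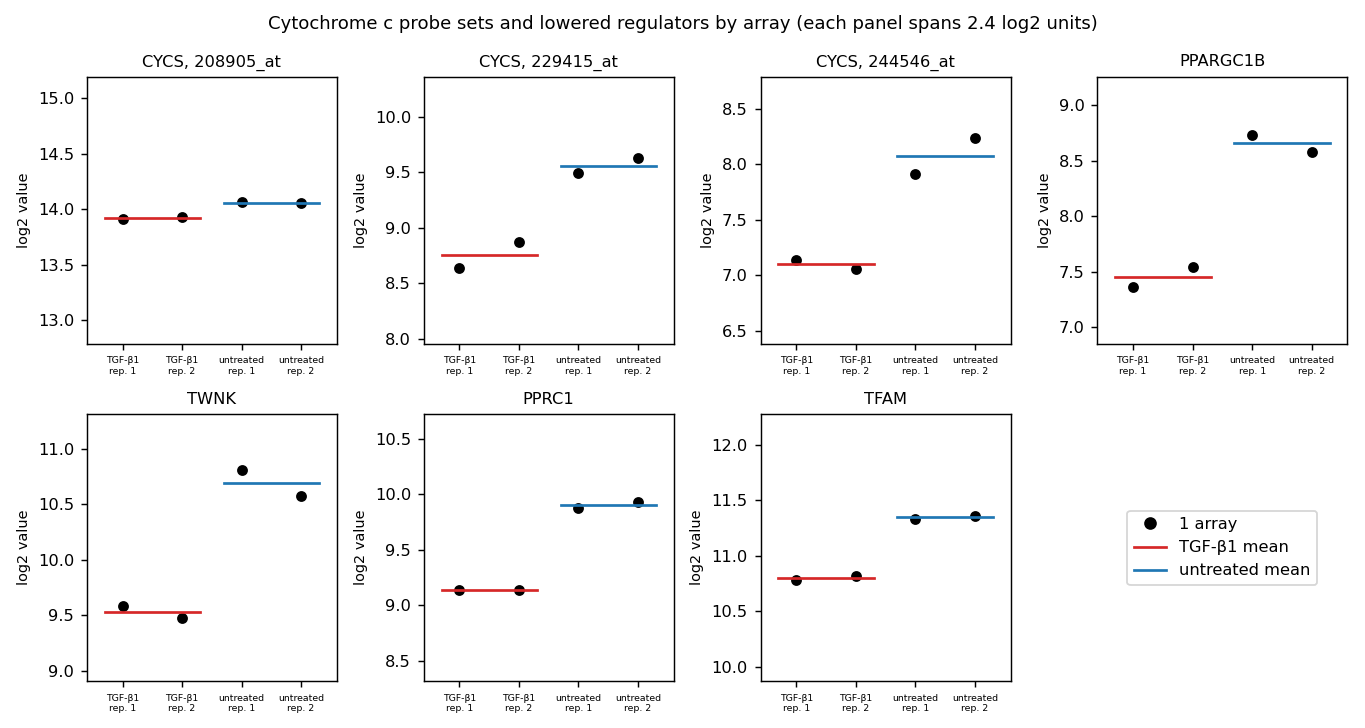
Log2 value on each array (points) and group means (lines) of the 3 CYCS probe sets and of the 4 lowered regulators, each panel spanning the same number of log2 units. The TGF-β1 arrays, at the left of each panel, lie below the untreated arrays in all 7 panels, least so for the brightest CYCS probe set.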

How the data were processed

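RNA of LSTGFBR2 cells was read on 4 one-colour arrays (HG-U133 Plus 2.0), grouped by sample title. The deposited values are log2 expression, made by the authors with RMA (background correction, quantile normalization and summarization per probe set), per the series' design text and the submitters' processing notes. No version of the software is named, and the log2 scale was judged from the range, 2.48 to 15.3. Quantile normalization hides a shift common to most genes, and the number of arrays limits the precision. Of 54675 probe sets, 41097 have 1 symbol and 1801 several. Symbols were updated by Entrez ID for 41043, which left 19775 genes.

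Groups were compared over all genes with limma 3.58.1 (lmFit and eBayes, R 4.3.3), with all 4 arrays and no covariate, two-sided, with 6.13 degrees of freedom and Benjamini-Hochberg adjustment, and called at 0.05. Intervals are 95%. The code was tested on simulated data with the spread of these arrays. There 4% of 1.5-fold, 48% of 2-fold and 92% of 4-fold changes were called, so smaller changes were mostly missed. With 1 array left out, the lone array was assumed to vary like the others. An exact permutation test of 2 against 2 cannot go below 0.333 and was not used. No label states that replicates are separate cultures, so the p-values rest on a spread that may be technical.

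Genes named are members at the extremes of each complex, the nearest to 0 in complexes I and IV, isoform pairs and CYCS. Also named are the 3 complex II members, which lack SDHB, and members whose probe sets differ by over 0.5. From each other list, up to 4 called genes are named or, with none, the highest and lowest. Members and lists were chosen with earlier results of these data known. Alternatives were minimum mean log2 values of 5 and 7, an intensity trend, median centring, averaged or all probe sets, a replicate block, each array left out and unadjusted p-values. Promoters are RefSeq's (GRCh38.p14).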

Additional observations from a re-analysis of the deposited data

How the results depend on the processing

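The number of subunit genes called was 0 of 60 at a minimum mean log2 value of 5 and 0 of 56 at 7, and 0 of 61 with an intensity trend, arrays centred on their medians, a replicate block, each array left out and unadjusted p-values. It was 1, CYCS, with the mean of a gene's probe sets and 1 with every probe set tested. In complexes I to IV it was 0 under each of these. Over all genes, 70 to 104 in place of 660 were called with 1 array left out, where fewer samples remain, and 3305 at an unadjusted p. The complex II median of 3 genes ran from -0.181 to 0.0368 with 1 array left out, lowest without untreated replicate 1. Lists run under the same alternatives after seeing the data gave 14 assembly factors, 9 regulators and 2 coenzyme Q and citric acid cycle genes at an unadjusted p, 0 to 1 regulators and 0 of the others with 1 array left out, and 1 coenzyme Q gene with averaged and with all probe sets. Regulators numbered 6 at minimum means of 5 and 7 and with centred arrays, 5 with an intensity trend and 3 with averaged or all probe sets, and assembly factors 2 with averaged probe sets, LYRM7 no longer. With only 2 pairs, the replicate numbers in the labels were not taken to pair the arrays. Deviations from the group means of arrays with the same number correlated at 0.364 across genes, and with the replicate block 561 genes, 0 subunits, 3 assembly factors and 3 regulators were called, TFAM no longer (adjusted p = 0.0598), nor the CYCS probe set 244546_at over all probe sets (adjusted p = 0.0845). Of the single named members' values, 354 moved by less than the residual spread under an alternative and 19 by more, and CYCS passed in 1.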
